A study of Mus musculus with 6 samples.

Results

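Antibody blockade of PD-L1 was compared with control treatment across the immune cells of 2 single-cell RNA sequencing libraries, each made from 1 mouse. The cells were those with at least 250 detected genes and at most 5% of their UMIs (unique molecular identifiers, the barcodes by which captured RNA molecules are counted) from mitochondrial genes, and a marker gate then placed them in T, NK, B, neutrophil, monocyte, macrophage or dendritic classes, with 9 marker genes per class such as Cd3e and Trac for T, Ncr1 and Gzma for NK, Cd79a and Ms4a1 for B cells, S100a8 and Csf3r for neutrophils, Ly6c2 and Ccr2 for monocytes, C1qa and Mrc1 for macrophages and Flt3 and Zbtb46 for dendritic cells. The gate held 16468 cells, 8457 of the control library and 8011 of the anti-PD-L1 library, out of 48189 gated cells in the 6 libraries of the series and out of 17876 cells of these 2 libraries that passed the filters. The mice were female C57BL/6 animals. According to the methods of the study they carried tumors grown from KPCA cells, a mouse ovarian cancer line proficient in homologous recombination, after injection into the ovarian bursa, and the 2FF groups received tumor cells that had been treated with 2FF beforehand. Anti-PD-L1 was a monoclonal antibody given by intraperitoneal injection, and control animals received solvent and a rat IgG antibody. The other 4 libraries came from mice given 2-Deoxy-D-glucose (2DG), 2DG plus anti-PD-L1, 2F-Peracetyl-Fucose (2FF) or 2FF plus anti-PD-L1, with KPCA tumors in every group. The sample labels name lymph node as the tissue of all 6 libraries. The design text of the series mentions mice that were young and aged. The methods instead describe tumors, give the same age range in weeks for all C57BL/6 mice and name no aged group. The tissue was therefore checked against marker genes.

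PD-L1, encoded by Cd274, is a surface protein of tumor and myeloid cells that binds the receptor PD-1, encoded by Pdcd1, on activated T cells and lowers their response. Interferon gamma, which activated T and NK cells secrete, acts on neighbouring cells and raises PD-L1 itself, antigen presentation and the CXCR3 ligands that attract T cells. Tumors also hold neutrophils and immature monocytes, which are recruited by CXCR2 and CCR2 ligands and can restrain T cells through arginase, nitric oxide and prostaglandins.

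Of the lymph node stroma markers, Ccl21a and Madcam1 had no UMI in the gated cells of either library, and the 4 markers together held 108 CPM (the usual depth-scaled unit, UMIs of a gene per 1000000 UMIs of the cells summed) in control and 56.8 CPM in anti-PD-L1 cells, while 6 tumor or epithelial markers together held 3.56 and 5.58 CPM. The gate keeps immune cells and leaves out stroma and tumor cells, so these low values were fixed in part by the gate. In the cells placed in no class, the tumor or epithelial markers held 14.4 CPM in control and 70.1 CPM with anti-PD-L1, and 5 fibroblast markers 1.44 and 36.9 CPM. The lymph node stroma markers held 143 and 49.2 CPM there, with Ccl21a and Madcam1 again at 0, so this sum came from Ccl19 and Pdpn alone. Pdpn also had UMIs in control T cells, so the sum is not particular to stroma. These markers did not settle the tissue. The deposited libraries held 73885214 UMIs in 9655 barcodes for control and 62823127 UMIs in 9764 barcodes for anti-PD-L1, and the cells that passed had medians of 6196 and 6237 UMIs. Cell barcodes shared by both libraries numbered 25. With 1 library per treatment there was no replicate and no test, so a difference between these mice or library preparations and an effect of the antibody cannot be told apart. All intervals given are exact 95% intervals (Clopper-Pearson for shares, Poisson for summed UMIs) and cover counting error only.

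The control library stood apart from all 5 others in its cell composition and in many genes, and the main results below are therefore set beside the levels of the other 4 libraries. Its neutrophil share was 42.2% of gated cells against 3.66% to 6.28% in the others, and its T cell share was 5.11% against 26.6% to 40.5%. UMIs of the class that was abundant in a library were also seen in cells of other classes, and their source was not tested. S100a8, a neutrophil alarmin, had a UMI in 21.1% of control T cells and in 2.59% of anti-PD-L1 T cells, at median depths of 6190.5 and 5757 UMIs. In monocytes S100a8 had a UMI in 46.5% of control and 3.695% of anti-PD-L1 cells, at median depths of 10324 and 6778.5 UMIs. Cd8a had a UMI in 0.512% of control monocytes and 3.49% of anti-PD-L1 monocytes. A gene whose level in a class was under 20% of its level in another class of the library where it was higher is named below as possibly free RNA.

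T cells took 5.11% of gated cells in control (432 cells, interval 4.65% to 5.599%) and 35.2% with anti-PD-L1 (2818 cells, 34.1% to 36.2%). Neutrophils went the other way, with 42.2% in control (3572 cells, 41.2% to 43.3%) and 3.91% with anti-PD-L1 (313 cells, 3.49% to 4.36%). The intervals were far apart for both classes. T cells per neutrophil numbered 0.121 in control and 9.003 with anti-PD-L1. NK cells, the innate cytotoxic lymphocytes, made up 0.296% (25 cells, 0.191% to 0.436%) and 3.97% (318 cells, 3.55% to 4.42%), and B cells 0.922% (78 cells) and 2.96% (237 cells). Lymphoid cells together were 6.33% of the control library and 42.1% of the anti-PD-L1 library. The monocyte share was 32.3% against 31.1%, macrophages made up 15.6% and 18.1%, and dendritic cells 3.48% and 4.79%.

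Shares of a library sum to a whole, so they do not give the number of cells in a tumor. With neutrophils left out of the denominator, an alternative added after the data were seen, T cells made up 8.84% and 36.6% of the remaining gated cells, and NK cells 0.512% and 4.13%. Monocytes then held 55.9% in control against 32.4%, macrophages 27.1% against 18.9%, and dendritic cells 6.02% against 4.99%. Lymphoid cells were therefore more frequent in the anti-PD-L1 library than in control under both denominators. The direction of the macrophage and dendritic shares turned with the denominator. Thinned to 1000 UMIs per cell, which removes depth as a difference, the T cell shares were 4.10% and 37.8% and the neutrophil shares 49.9% and 5.32%. In the other 4 libraries, 2 of which had no anti-PD-L1, T cells held 26.6% to 40.5%, NK cells 2.08% to 5.38% and neutrophils 3.66% to 6.28%.

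**Figure D1:**
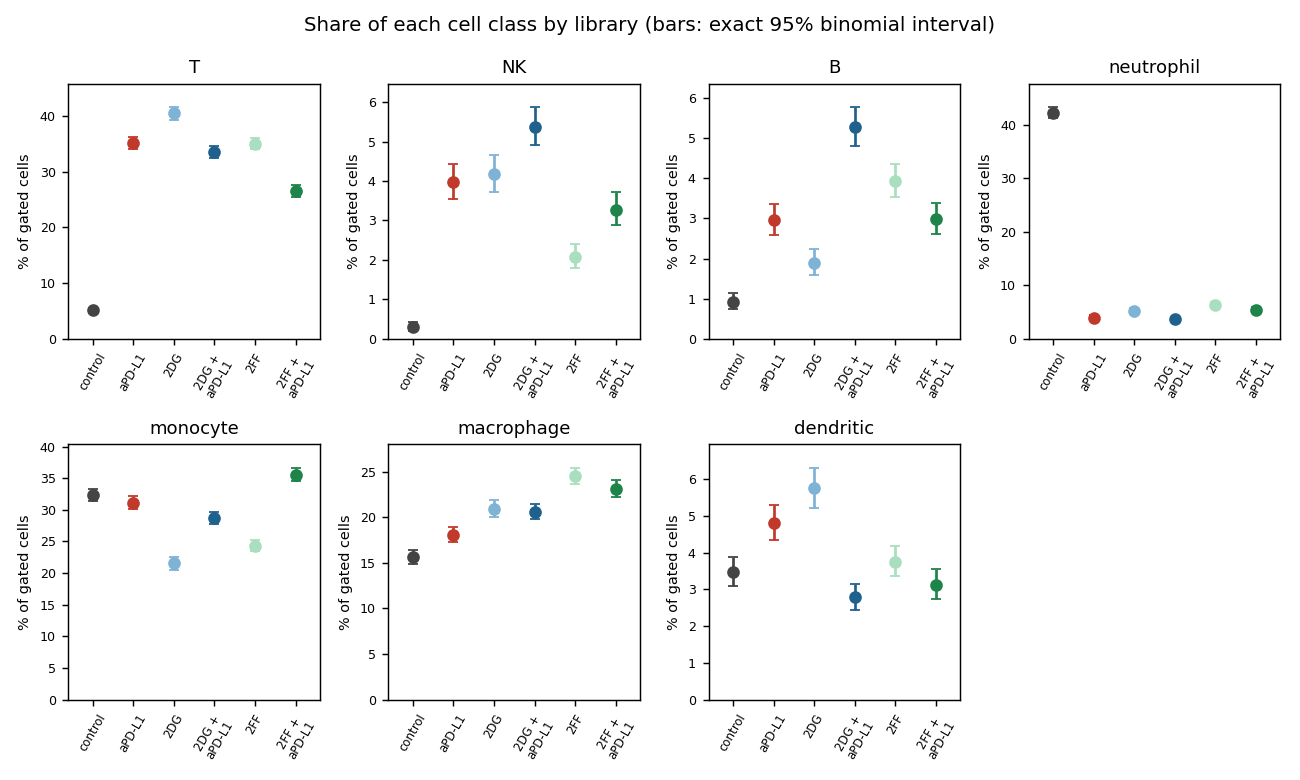
Share of each class among gated cells (y axis, percent) in the 6 libraries (x axis), with exact 95% binomial intervals as bars and 1 mouse per library. The control library lies apart at 42.2% neutrophils and 5.11% T cells, while in these classes the anti-PD-L1 library lies within the range of the other 4.

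T cells were split by the RNAs of their coreceptors. CD8 T cells, the cytotoxic lineage (a UMI of Cd8a or Cd8b1 and none of Cd4 or Foxp3), were 28.9% of T cells in control (125 cells, 24.7% to 33.5%) and 60.4% with anti-PD-L1 (1701 cells, 58.5% to 62.2%). CD4 T cells, the helper lineage (a UMI of Cd4 and none of Foxp3, Cd8a or Cd8b1), were 32.4% and 15.9%. Foxp3 encodes the factor that defines regulatory T cells. Foxp3 T cells (a UMI of Foxp3 and none of Cd8a or Cd8b1) were 19.0% (15.4% to 23.0%) and 9.87% (8.79% to 11.03%). Whatever their Cd8a or Cd8b1, T cells with a Foxp3 UMI were 19.9% and 11.4%. The ratio of CD8 to Foxp3 T cells was 1.52 in control and 6.12 with anti-PD-L1. Thinned to 1000 UMIs per cell, CD8 T cells were 22.9% and 44.2% of T cells and CD4 T cells 20.2% and 8.94%. Foxp3 T cells then held 5.43% (2.998% to 8.94%) and 3.65% (2.86% to 4.58%), so their difference was not detectable at that depth. CD8 T cells took 48.4% to 66.8% of T cells in the other 4 libraries and Foxp3 T cells 4.44% to 14.1%, so the control library held the lowest CD8 share and the highest Foxp3 share of the 6.

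Non-classical monocytes, the patrolling cells of the vessel wall (at least 2 UMIs of Ace, Treml4 or Spn), were 12.04% of monocytes in control (329 cells, 10.8% to 13.3%) and 29.3% with anti-PD-L1 (730 cells, 27.5% to 31.1%). The other 4 libraries held 22.2% to 35.4%. Thinned to 1000 UMIs the values were 1.25% and 4.63%. Among dendritic cells, each subset needed at least 2 UMIs of its pair of marker genes. Mature cells with Ccr7 and Fscn1 were 41.8% and 41.7%, cross-presenting cDC1 cells (Xcr1 and Clec9a) 27.6% (22.5% to 33.0%) and 20.6% (16.6% to 24.97%), and cDC2 cells (Cd209a and Clec10a) 21.1% and 21.6%. Plasmacytoid cells (Siglech and Ccr9), the interferon alpha producers, were 3 of 294 cells and 17 of 384 cells (1.02%, 0.211% to 2.95%, and 4.43%, 2.60% to 6.99%). The intervals of all 4 dendritic subsets overlapped between the 2 libraries.

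**Figure D2:**
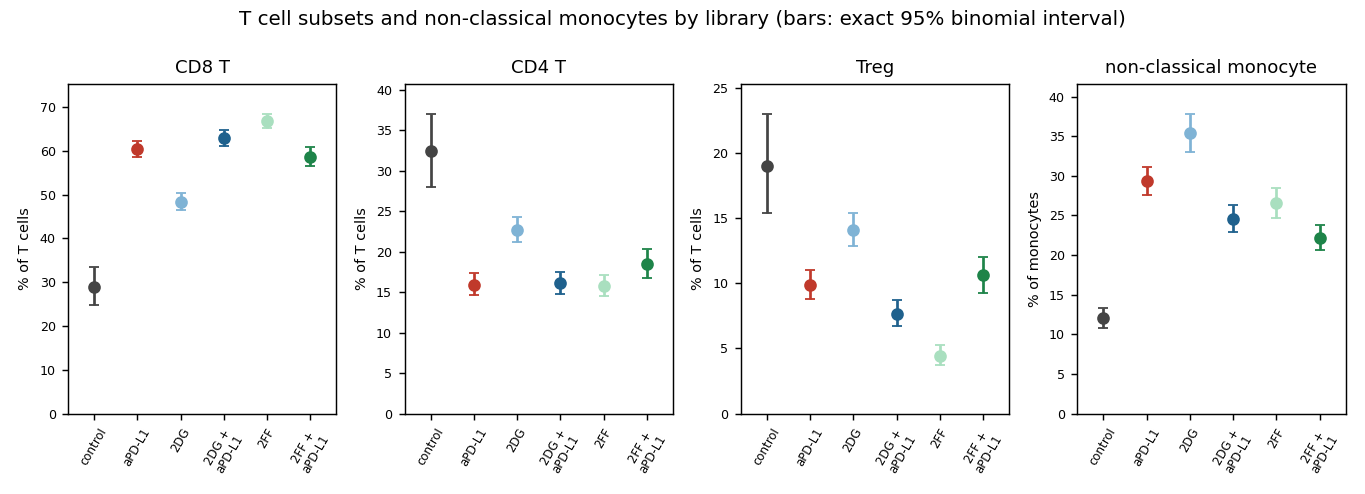
Shares of CD8, CD4 and Foxp3 T cells and of non-classical monocytes within their class (y axis, percent) in the 6 libraries (x axis), with exact 95% binomial intervals as bars and 1 mouse per library. CD8 T cells lie at 28.9% of T cells in control and 60.4% with anti-PD-L1, and non-classical monocytes at 12.04% and 29.3% of monocytes.

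For gene levels, UMIs were summed over the cells of a class in each library and given as CPM of that sum. A gene was compared where both libraries together held at least 50 UMIs in the class. Where 1 library held most UMIs of a class, genes high in that library reached this floor more easily. It is called past the fold, or said to have risen or fallen with anti-PD-L1, where the log2 ratio of CPM + 5 was at least 1 in size and the Poisson intervals of the libraries did not overlap. Of a pair of CPM values the first is control and the second anti-PD-L1, and a fold is the CPM of the higher library over that of the lower with its 95% counting interval in parentheses. CPM are not divided by gene length, so only the same gene is compared between libraries or classes.

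Cd274 (GRCm38, chromosome 19, 29367455 to 29388095), the gene of the antibody's target, was not past the fold in any class. Its level was highest in neutrophils at 1184 and 1266 CPM, followed by dendritic cells at 644 and 789 CPM and monocytes at 463 and 499.5 CPM. Macrophages held 320.1 and 425 CPM, B cells 238 and 427 CPM, T cells 172 and 125 CPM and NK cells 86.6 and 67.9 CPM. Myeloid and B cells of the anti-PD-L1 library thus had somewhat higher Cd274 levels than those of control, with B cells the furthest apart at 1.8-fold, 1.46 to 2.24, while T and NK cells had lower levels that were in the range of possibly free RNA. The share of cells with a Cd274 UMI was higher in B cells (47.4% and 61.6%). It was lower in monocytes (71.6% and 65.5%, at median depths of 10324 and 6778.5 UMIs). In neutrophils it was 70.2% and 68.4%, with overlapping intervals. Pdcd1, which encodes PD-1, was found mainly in T cells, at 196 and 243 CPM, and in CD8 T cells at 157 and 263 CPM (1.67-fold, 1.41 to 1.98). In monocytes, macrophages, neutrophils and dendritic cells it stayed at or under 17.6 CPM in both libraries and in the range of possibly free RNA. Pdcd1lg2, the gene of PD-L2, the second ligand of PD-1, rose in macrophages from 24.7 to 138 CPM (5.57-fold, 4.98 to 6.24). It was at 121 to 227 CPM in macrophages of the other 4 libraries, all above control.

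T cells of the anti-PD-L1 library held more RNA of interferon gamma and perforin and less of the IL-7 receptor. Of 11484 compared genes 71 (0.618%) were higher past the fold and 148 (1.29%) were lower. Ifng (GRCm38, chromosome 10, 118441046 to 118445892), the gene of interferon gamma, rose from 141 to 409 CPM (2.91-fold, 2.64 to 3.21). It had a UMI in 33.8% of control and 57.4% of anti-PD-L1 T cells. In the other 4 libraries T cells held 336 to 541 CPM of Ifng, so control was the lowest of the 6. Prf1, which encodes the pore-forming protein perforin, rose from 166 to 421 CPM (2.54-fold, 2.32 to 2.78), and Ccl4, the gene of a chemokine of activated T cells, from 419 to 911 CPM. These were the 3 of 16 genes of the effector and cytotoxic list past the fold. Il7r, the receptor for the survival cytokine IL-7, fell from 446 to 199 CPM (2.25-fold, 2.11 to 2.39), against 141 to 289 CPM in the other 4 libraries. The coreceptor genes Cd8a and Cd8b1 also rose past the fold over all T cells, beside the larger share of CD8 cells, so CD8 T cells were summed alone as well.

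Within CD8 T cells 161 of 10253 genes (1.57%) were higher past the fold and 156 (1.52%) lower, from 125 control cells and 1701 anti-PD-L1 cells. Ifng rose there too, from 194 to 498 CPM (2.57-fold, 2.22 to 3), with 434 to 583 CPM in the other 4 libraries. It was the only one of 15 compared effector genes past the fold, and the median log2 ratio of that list was 0.36, against 0.04 over all compared genes. Taken as a mean over cells, the list's median was 0.12. Perforin RNA was at 336 and 584 CPM (1.74-fold, 1.55 to 1.95). Gzmb, a granzyme of cytotoxic granules, was at 503 and 521 CPM, and Gzmk, a granzyme of memory cells, at 124 and 69.3 CPM.

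None of 15 checkpoint genes was past the fold in CD8 T cells, and their median log2 ratio was -0.16. Lag3, an inhibitory receptor gene, was at 170.2 and 286 CPM (1.68-fold, 1.43 to 1.98). Havcr2, the gene of TIM-3, was at 269 and 241 CPM, Ctla4 at 587 and 474 CPM and Tox, a transcription factor of exhausted T cells, at 1333 and 1489 CPM. Each of these genes thus differed by less than the fold, and the same list had no gene past the fold over all T cells.

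Lef1 and Tcf7, which encode transcription factors of naive and stem-like T cells, fell in CD8 T cells. Lef1 went from 275 to 86.1 CPM (3.2-fold, 2.78 to 3.67). Tcf7 went from 79.2 to 32.2 CPM (2.46-fold, 1.89 to 3.16). In the other 4 libraries CD8 cells held 79.1 to 120.5 CPM of Lef1 and 28.3 to 42.6 CPM of Tcf7, all below control. These were the only 2 of 9 compared genes of the naive and memory list past the fold. The interferon response list had a median of 0.01 in CD8 T cells and 0.09 in T cells, and each of its genes past the fold there (2 of 27 and 1 of 27) was in the range of possibly free RNA.

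By the rule for named genes, which takes the 5 highest and 5 lowest log2 ratios among genes past the fold, detected in at least 10% of cells and above the limit for free RNA, the highest in T cells were Apol8, Myo10, Fam20a, Ifng and Klrc2. Apol8, of the apolipoprotein L family, rose from 3.88 to 43.7 CPM (11.3-fold, 6.41 to 21.9). Myo10, which encodes an unconventional myosin of filopodia, rose from 57.3 to 224 CPM, Fam20a, a gene of the secretory pathway, from 6.15 to 30.1 CPM, and Klrc2, the gene of the NKG2C receptor, from 30.7 to 93 CPM. Apol8, Myo10 and Fam20a led in CD8 T cells too, with Fasn, the fatty acid synthase gene, from 4.28 to 27.4 CPM and the glutamate transporter gene Slc17a6 from 24.6 to 81.1 CPM. The lowest in T cells were Hspa1b and Hspa1a of the heat shock response, Frmd5 from 359 to 72.7 CPM, the histone gene Hist1h4n from 38.8 to 4.5 CPM and Ston1 from 24.3 to 2.7 CPM. In CD8 T cells Penk, the proenkephalin gene, fell from 105 to 15.1 CPM (6.93-fold, 5.37 to 8.91) and Fam241a from 89.9 to 24.3 CPM, beside Hspa1b, Hspa1a and Hist1h4n.

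NK cells numbered only 25 in control, with 161706 UMIs, and 318 with anti-PD-L1, so their gene levels are the least precise of all classes. Of 4948 genes 129 (2.61%) were higher past the fold and 78 (1.58%) lower. The cytotoxic genes did not differ past the fold, with Prf1 at 1496 and 2033 CPM (1.36-fold, 1.19 to 1.55) and Gzmb at 2733 and 2175 CPM, nor did Ifng at 278 and 236 CPM. The chemokine genes Ccl3 and Ccl4 rose, Ccl4 from 699 to 2203 CPM (3.15-fold, 2.61 to 3.84), as the 2 of 13 compared effector genes past the fold. None of 12 interferon response genes was past the fold, with a median of 0.36.

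Klra1, which encodes a Ly49 receptor of a family of near-identical genes, had no UMI in control NK cells and 74.9 CPM with anti-PD-L1, at least 4.04-fold higher against a floor of 3 UMIs in control. Mmgt2, Simc1 and Tsc22d1 had no control UMI either and were at least 3.11, 3.04 and 2.11-fold higher, and Astl had 1 UMI in control (14.8-fold, 2.62 to 589). All 5 named higher genes of the class therefore rest on 0 or 1 control UMIs. Nt5e, the gene of the adenosine-producing enzyme CD73, fell from 167 to 21.8 CPM (7.67-fold, 4.45 to 13.1). Ctla4 fell from 223 to 56.4 CPM and the histone gene Hist1h1d from 161 to 33.3 CPM, beside Hspa1a and Hspa1b. T cell markers summed to 1001.8 CPM in control NK cells, against 4124.4 CPM in control T cells. Their part in the NK levels, that of Ctla4 included, was not tested.

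Monocytes of the anti-PD-L1 library held more RNA of interferon response and MHC class II genes and less RNA of CXCR2 and CCR2 ligands, of the suppressive enzymes Arg1, Nos2 and Ptgs2 and of hypoxia genes. The class had similar numbers of cells in both libraries, 2733 and 2490, with 27321041 and 17676203 UMIs. Of 11911 genes 491 (4.12%) were higher past the fold and 269 (2.26%) lower. The median log2 ratio over all genes was 0.14, and after centring on it 345 genes were higher and 371 lower. Neutrophil markers summed to 825 CPM in control monocytes and 247 CPM in anti-PD-L1 monocytes and T cell markers to 23.9 and 87.2 CPM, and their part in the results was not tested. The summed monocytes also differed in makeup, with 12.04% and 29.3% non-classical cells, and the part of this mix in the levels was not tested.

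Of 27 compared interferon response genes 18 rose past the fold in monocytes and none fell, with a median log2 ratio of 1.20. Cxcl9 (GRCm38, chromosome 5, 92321347 to 92328079), a CXCR3 ligand induced by interferon gamma, rose from 80.6 to 508 CPM (6.3-fold, 6.01 to 6.6). The related Cxcl10 rose from 161 to 479 CPM. Irf1, a transcription factor of the pathway, rose from 121 to 479 CPM (3.95-fold, 3.79 to 4.11). Socs1, a feedback inhibitor of cytokine receptors, rose from 16.8 to 46.9 CPM. These are levels of the summed class, and no count of cells that held several of these RNAs was made.

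The guanylate-binding proteins and immunity-related GTPases defend cells against intracellular microbes. Gbp5 rose from 53 to 179 CPM (3.38-fold, 3.18 to 3.6), Gbp2 from 223 to 465 CPM, Igtp from 34.4 to 93.6 CPM and Iigp1 from 18.4 to 77.3 CPM (4.2-fold, 3.79 to 4.66). Of genes that type I interferon induces as well, Ifit3 rose from 11.7 to 47.5 CPM and Irf7 from 66.1 to 158 CPM, and Isg15 was under the fold at 174 and 269 CPM. Monocytes of the other 4 libraries held 219 to 544 CPM of Cxcl9, 373 to 523 CPM of Irf1 and 171 to 263 CPM of Gbp5, all above control. The interferon list had medians of 0.60 for 2DG plus anti-PD-L1 over 2DG and 0.18 for 2FF plus anti-PD-L1 over 2FF, pairs that share no library with each other or with control and anti-PD-L1.

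The 250 bases before the transcription start of interferon response genes were read from RefSeq (GRCm38.p6), with 28 windows matched for 22 of the list's genes. They were searched on both strands for an IRF core, GAAANNGAA, a sequence pattern of the IRF factors. The IRF core was found in 15 of 28 windows (53.6%), against 7.13% of all 32851 windows of this length. A match is a description of the letters and no measured binding site. Shown are the windows of Cxcl9, the gene with the largest monocyte change of the list, of Gbp2 and of Igtp, each on its own strand, 5′ to 3′ up to the base before the start, with the matched letters in capitals, the IRF core in all 3 (on the opposite strand in Gbp2). Their positions are chr5:92328080-92328329 on the minus strand for Cxcl9, chr3:142620413-142620662 on the plus strand for Gbp2 and chr11:58199306-58199555 on the plus strand for Igtp.
Cxcl9: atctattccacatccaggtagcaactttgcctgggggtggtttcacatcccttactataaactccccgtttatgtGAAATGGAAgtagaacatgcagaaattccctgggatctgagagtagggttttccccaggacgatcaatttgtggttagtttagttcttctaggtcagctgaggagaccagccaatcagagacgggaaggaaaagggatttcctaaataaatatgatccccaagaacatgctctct
Gbp2: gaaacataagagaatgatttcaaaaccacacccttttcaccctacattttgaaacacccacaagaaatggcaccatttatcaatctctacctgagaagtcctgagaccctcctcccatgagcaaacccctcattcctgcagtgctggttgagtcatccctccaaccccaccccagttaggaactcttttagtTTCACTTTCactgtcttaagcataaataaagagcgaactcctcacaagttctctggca
Igtp: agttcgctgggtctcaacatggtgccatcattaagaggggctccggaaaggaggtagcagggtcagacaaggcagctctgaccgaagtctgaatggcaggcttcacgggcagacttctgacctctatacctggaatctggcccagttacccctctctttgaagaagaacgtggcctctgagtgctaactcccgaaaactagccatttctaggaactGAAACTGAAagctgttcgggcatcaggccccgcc

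MHC class II genes, which present antigen to CD4 T cells, rose in 6 of 10 cases in monocytes and fell in none, with a median of 1.61. H2-Ab1, a chain of the class II molecule, rose from 428 to 1476 CPM (3.45-fold, 3.37 to 3.52). The further chains H2-Aa and H2-Eb1 rose from 328 to 1320.5 CPM and from 239.8 to 885 CPM. Cd74, the invariant chain that guides them, rose from 1187 to 3815 CPM, and Ciita, the transactivator of the whole group, from 28.3 to 155 CPM (5.47-fold, 5.05 to 5.93). All 5 lay above the limit for free RNA, and reads of such closely related H2 genes may be split. Monocytes of the other 4 libraries held 1145 to 1958 CPM of H2-Ab1. The median of the list was -0.11 and -0.58 in the pairs with 2DG and 2FF, against -0.07 and -0.04 over all compared genes. With 2DG it thus lay close to the median of all genes, and with 2FF below it. MHC class I genes rose in 2 of 12 cases, the peptide transporter gene Tap1 from 91.5 to 193 CPM and Nlrc5, the class I transactivator, from 63.6 to 184 CPM.

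Chemokine genes of monocytes split by the cells that they attract. Of 6 compared T and NK attracting genes 5 rose (median 1.44). Above the limit for free RNA were Cxcl9, Cxcl10 and Cxcl16, a ligand of CXCR6 on T cells, which rose from 38.3 to 104 CPM. Ccl5 at 43.3 and 266 CPM and Ccl17 were in the range of possibly free RNA. Of 5 neutrophil attracting and activating genes 4 fell (median -2.23). Cxcl3 (GRCm38, chromosome 5, 90786103 to 90789600), a CXCR2 ligand, fell from 1136 to 82.8 CPM (13.7-fold, 13 to 14.5). Its relatives fell as well, Cxcl2 from 5398 to 1600.1 CPM (3.37-fold, 3.33 to 3.42), Cxcl1 from 98.8 to 15.2 CPM and Ppbp from 21.9 to 0.736 CPM. Monocytes of the other 4 libraries held 24.9 to 129.9 CPM of Cxcl3, far below control.

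Of 6 monocyte attracting genes 4 fell in monocytes (median -1.59). Ccl2 (GRCm38, chromosome 11, 82035571 to 82037453), the main CCR2 ligand, fell from 1212 to 204 CPM (5.94-fold, 5.74 to 6.15). Ccl7, a further CCR2 ligand, fell from 208 to 66.7 CPM, and the CCR1 ligands Ccl6 and Ccl9 from 2223 to 670.1 CPM and from 1052 to 344 CPM. Ccl2 was at 186 to 680.1 CPM in the other 4 libraries, all below control. In the pairs with 2DG and 2FF the neutrophil attracting list had medians of 1.38 and 1.02 in monocytes and the monocyte attracting list 0.55 and 0.77, opposite in sign to anti-PD-L1 over control.

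Enzymes by which myeloid cells restrain T cells fell in 4 of 8 compared cases in monocytes (median -1.32). Arg1, the arginase that depletes arginine, fell from 5453 to 1555 CPM (3.51-fold, 3.46 to 3.55). Nos2, the inducible nitric oxide synthase, fell from 488 to 122 CPM (4.01-fold, 3.83 to 4.2). Ptgs2, the cyclooxygenase of prostaglandin synthesis, fell from 695 to 131 CPM, and Hmox1, which degrades heme, from 909 to 136 CPM. Il4i1, an amino acid oxidase gene, was the 1 that rose, in the range of possibly free RNA. The other 4 libraries held 988 to 2035 CPM of Arg1 and 120.5 to 314 CPM of Nos2, again all below control.

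Of 18 hypoxia and glycolysis genes 8 fell in monocytes and none rose (median -0.96). Egln3, a prolyl hydroxylase that senses oxygen, fell from 388 to 96.5 CPM (4.02-fold, 3.82 to 4.23). The angiogenic factor gene Vegfa fell from 340 to 101 CPM, the glucose transporter gene Slc2a1 from 551 to 224 CPM and the mitophagy gene Bnip3 from 319 to 87.3 CPM. The list had medians of 0.01 and 0.07 in the pairs with 2DG and 2FF. Of 15 lipid and matrix genes of tumor macrophages 7 fell and 1 rose. Spp1 (GRCm38, chromosome 5, 104435118 to 104441050), which encodes osteopontin, fell from 4015 to 577 CPM (6.96-fold, 6.82 to 7.11). The tetraspanin gene Cd9 fell from 621 to 152 CPM and the protease gene Ctsl from 759.9 to 215 CPM, while Fabp5, a fatty acid carrier gene, rose from 294 to 652 CPM.

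The named genes that rose most in monocytes were Stxbp6 from 23.1 to 172 CPM (7.48-fold, 6.86 to 8.16), Cxcl9, Tcof1 from 60.03 to 378 CPM, Ccdc88c from 16.8 to 110.2 CPM and the receptor kinase gene Grk3 from 26.7 to 158 CPM. Those that fell most were Cxcl3, the acute-phase gene Saa3 from 458 to 50.1 CPM (9.13-fold, 8.53 to 9.78), the metallothionein gene Mt2 from 632 to 80.05 CPM, Spp1 and Lrg1, which encodes a secreted glycoprotein, from 130 to 15.7 CPM. Control was the lowest of the 6 libraries for 489 of the 491 higher genes and the highest for 264 of the 269 lower ones, against 43.8% and 19.7% of all compared genes. The genes were chosen by their distance from control, which by itself puts control toward an edge, so these counts are a description.

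**Figure D3:**
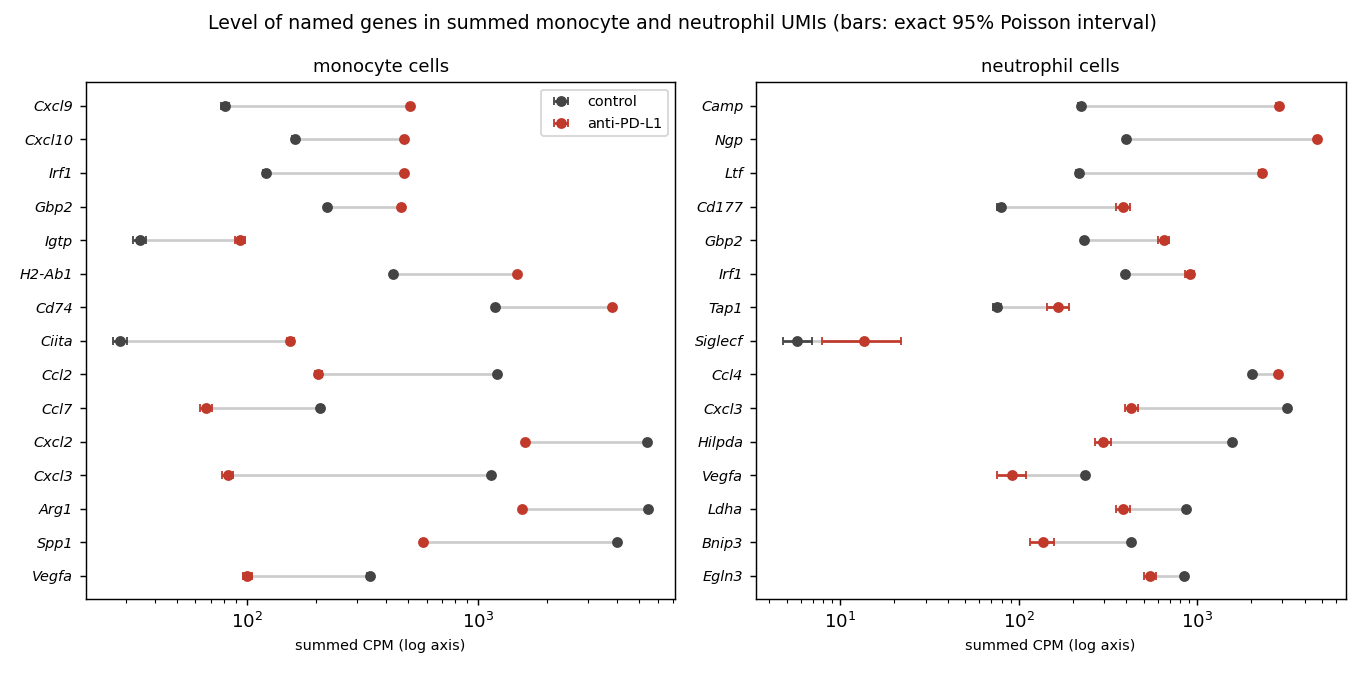
Level of 15 genes in summed monocyte UMIs (left) and 15 in summed neutrophil UMIs (right) of the control and anti-PD-L1 libraries (x axis, CPM on a log scale), with exact 95% Poisson intervals as bars and 1 library per treatment. Monocyte Cxcl9 lies at 80.6 and 508 CPM and Ccl2 at 1212 and 204 CPM, and neutrophil Camp at 222 and 2862 CPM.

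Macrophages changed in the same directions as monocytes in the interferon, MHC class II and CXCR2 ligand lists, while Arg1 and most hypoxia genes stayed under the fold. The class numbered 1323 cells in control and 1451 with anti-PD-L1, and 159 of 11676 genes (1.36%) were higher past the fold and 126 (1.08%) lower. Neutrophil markers summed to 606 CPM in control macrophages and 151 CPM in anti-PD-L1 macrophages and monocyte markers to 2420 and 1607 CPM. T cell markers summed to 27.5 and 117 CPM and NK cell markers to 2.19 and 45.7 CPM, and the part of these markers in the results was not tested. Of 27 interferon response genes 13 rose and none fell (median 0.86). Cxcl9 rose from 449.5 to 1269.7 CPM (2.82-fold, 2.75 to 2.91), and the other 4 libraries held 1026 to 1387 CPM. Cxcl10 rose from 101 to 337 CPM and Irf1 from 120.5 to 278 CPM. Of 10 MHC class II genes 4 rose (median 0.85). Ciita rose from 101 to 257 CPM (2.55-fold, 2.4 to 2.71), H2-Ab1 from 1860.3 to 4222 CPM and H2-DMb1, a subunit of the peptide editor, from 181 to 391.9 CPM. T and NK attracting chemokines rose in 3 of 6 cases (median 1.19), with Ccl5 in the range of possibly free RNA.

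Neutrophil attracting genes fell in 3 of 5 cases in macrophages (median -1.04), the CXCR2 ligands Cxcl1 from 81.1 to 36.7 CPM (2.21-fold, 1.98 to 2.46) and Ppbp from 53 to 9.3 CPM and, possibly as free RNA, Cxcl3 from 473 to 53.4 CPM. In the pairs with 2DG and 2FF the medians of this list were 0.92 and 0.87. Ccl2 fell from 717 to 223 CPM (3.22-fold, 3.09 to 3.35), but Ccl8, another monocyte attractant, rose from 118 to 289.5 CPM (2.44-fold, 2.31 to 2.59). The monocyte attractants of macrophages therefore did not move together. Ptgs2 and Hmox1 fell from 294 to 85 CPM and from 768 to 192 CPM, whereas Arg1 was at 4069 and 3225 CPM (1.26-fold, 1.25 to 1.28), and Nos2 at 195 and 147 CPM. Arg1 was past the fold in monocytes and not in macrophages, and the difference between the classes was not tested.

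Egln3, which fell from 173 to 80.8 CPM, was the only one of 18 hypoxia genes past the fold in macrophages. Of 16 lipid and matrix genes 4 fell, Spp1 from 2389.9 to 1009.7 CPM (2.37-fold, 2.32 to 2.41), the lipoprotein lipase gene Lpl from 94.3 to 43.9 CPM, the fatty acid receptor gene Cd36 from 104 to 49 CPM and Cd9 from 327 to 151 CPM. Fabp5 rose from 281 to 670.5 CPM, as in monocytes. The named genes that rose most were Ly6i from 12.1 to 108 CPM (8.9-fold, 7.62 to 10.4), of the Ly6 family of closely related surface proteins, the class II gene H2-Eb2 from 1.59 to 29.1 CPM, Supv3l1, the gene of a mitochondrial RNA helicase, from 17.9 to 109 CPM, the interferon-induced Ifitm1 from 227 to 1123 CPM and Pdcd1lg2. Those that fell most were the adhesion molecule gene Vcam1 from 163 to 20 CPM (8.15-fold, 7.17 to 9.3), Nrg4, a growth factor gene, from 31.2 to 3.49 CPM, Hspa1b, the Fc receptor-like gene Fcrls from 120.1 to 26.8 CPM and Hmox1. Control was the lowest of the 6 libraries for 153 of the 159 higher genes and the highest for 119 of the 126 lower ones, against 25.5% and 30.2% of all compared genes. As in monocytes, the choice of genes by their distance from control puts control toward an edge, so these counts are a description.

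**Figure D4:**
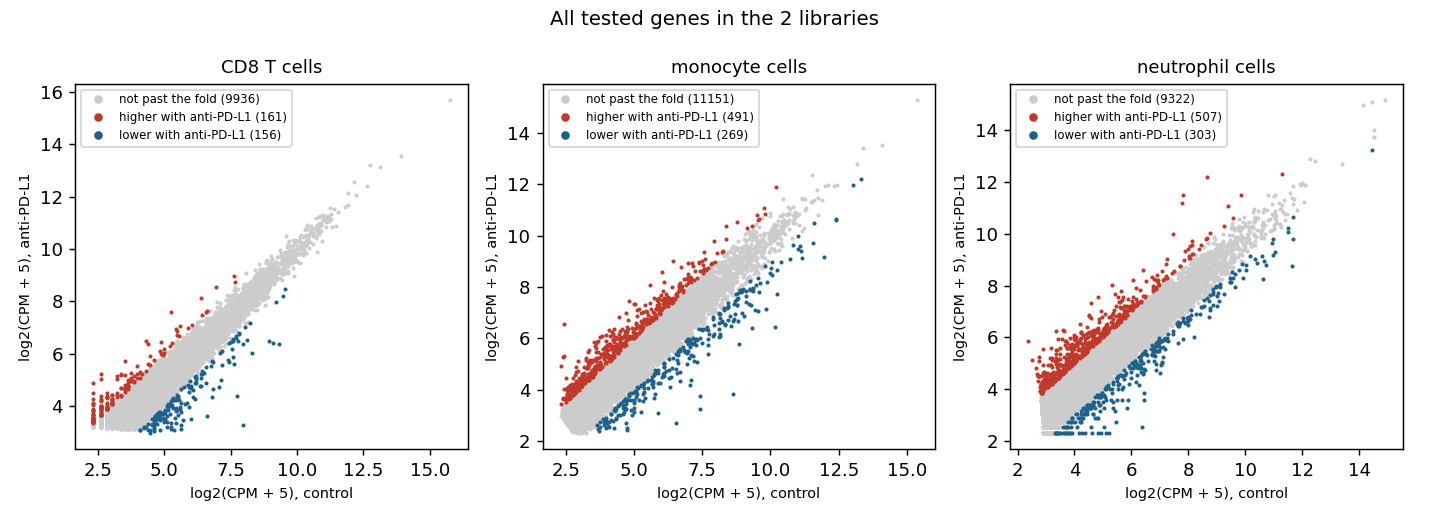
Log2(CPM + 5) of every compared gene in the control (x axis) and anti-PD-L1 (y axis) libraries for CD8 T cells, monocytes and neutrophils, with genes higher and lower past the fold in red and blue. The numbers past the fold are 161 and 156 in CD8 T cells, 491 and 269 in monocytes and 507 and 303 in neutrophils.

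Neutrophils of the anti-PD-L1 library held far more RNA of granule genes and more of interferon response genes, and less RNA of hypoxia genes. They were few, 313 cells and 1253010 UMIs, against 3572 cells and 20007935 UMIs in control. Of 10132 genes 507 (5.0%) were higher past the fold and 303 (2.99%) lower. The median log2 ratio over all genes was 0.12, and centring on it gave 352 higher and 419 lower. T cell markers summed to 51.1 CPM in control and 259 CPM in anti-PD-L1 neutrophils, and their part in the higher genes was not tested.

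Granule genes, which neutrophils transcribe while they mature in the bone marrow, were the highest of the class. Camp (GRCm38, chromosome 9, 109847379 to 109849617), which encodes the antimicrobial peptide cathelicidin, rose from 222 to 2862 CPM (12.9-fold, 12.3 to 13.5). It had a UMI in 2.38% of control and 10.9% of anti-PD-L1 neutrophils, so most neutrophils of both libraries had none. Ngp rose from 397 to 4665 CPM and Ltf, the lactoferrin gene, from 216 to 2308 CPM. Cebpe, the transcription factor of secondary granules, rose from 7.55 to 70.2 CPM (9.31-fold, 7.07 to 12.2). Ifitm6 rose from 172 to 1025 CPM, Cd177, a surface protein of neutrophils, from 79.1 to 382 CPM and Lcn2, which encodes an iron-withholding lipocalin, from 919 to 2859.5 CPM. Of 13 compared granule and maturity genes 6 rose and 2 fell (median 0.79), the latter being the cathepsin inhibitor genes Cstb from 793 to 239 CPM and Stfa2l1 from 548 to 259 CPM. Camp was at 1252 to 3491 CPM in the other 4 libraries, all above control. The granule and maturity list had medians of -0.49 and 0.74 in the pairs with 2DG and 2FF, so its direction differed between these pairs.

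Interferon response genes rose in 11 of 27 cases in neutrophils (median 0.91), 9 of them above the limit for free RNA. Gbp5 rose from 41.4 to 182 CPM (4.4-fold, 3.78 to 5.1) and Gbp4 from 7.75 to 53.5 CPM. Gbp2 rose from 231 to 646 CPM (2.79-fold, 2.59 to 3.01) and Irf1 from 395 to 904 CPM. The genes Isg15 and Ifit1, which type I interferon induces as well, were under the fold at 414 and 506 CPM and 107 and 122 CPM. MHC class I genes rose in 5 of 12 cases, among them the heavy chain gene H2-K1 from 429 to 1049.5 CPM (2.45-fold, 2.31 to 2.59), the immunoproteasome gene Psmb8 from 104 to 249.8 CPM and Tap1 from 75.3 to 166 CPM. The interferon list had medians of 0.51 and -0.10 in the pairs with 2DG and 2FF.

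Of 18 hypoxia and glycolysis genes 8 fell in neutrophils and none rose (median -0.86). Bnip3 fell from 426 to 136 CPM (3.14-fold, 2.7 to 3.68). Vegfa fell from 235 to 91 CPM, the lactate dehydrogenase gene Ldha from 861 to 382 CPM and Ero1l, which forms disulfide bonds in secreted proteins, from 1516 to 556 CPM. Hilpda, a lipid droplet gene that hypoxia also induces, fell from 1558 to 298 CPM (5.24-fold, 4.73 to 5.81). Of 8 suppressive genes 3 fell (median -0.54), Hmox1 from 532 to 164 CPM, Ptgs2 from 1027 to 438 CPM and Arg1, the last in the range of possibly free RNA. Cybb, a subunit gene of the oxidase of the respiratory burst, was the 1 that rose, from 147 to 520.3 CPM (3.53-fold, 3.24 to 3.85). In the pairs with 2DG and 2FF the hypoxia list had medians of 0.20 and 0.21 and the suppressive list 0.70 and 0.39.

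Cxcl3 was the gene that fell most in neutrophils, from 3199 to 426 CPM (7.51-fold, 6.89 to 8.19). Cxcl2, the chemokine gene with the most UMIs in these cells, was under the fold at 23449 and 13518 CPM (1.73-fold, 1.71 to 1.76). Next to Cxcl3 and Hilpda the lowest named genes were the ATP receptor gene P2rx7 from 123 to 19.9 CPM, Tceal9 from 112 to 21.6 CPM and the proton pump gene Atp6v0d2 from 128 to 25.5 CPM.

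Dendritic cells differed little in MHC class II genes, and no gene of the MHC class I list was past the fold. H2-T23, a class I gene outside that list, was lower past the fold in them. Of 9490 genes 123 (1.30%) were higher past the fold and 134 (1.41%) lower, from 294 and 384 cells. Neutrophil markers summed to 192.5 and 70.6 CPM in these cells and T cell markers to 16.5 and 79.6 CPM. No MHC class II gene was past the fold, and H2-Ab1 was at 4772 and 4906 CPM (1.03-fold, 1.01 to 1.05). Interferon response genes rose in 2 of 26 cases (median 0.69), Cxcl10 from 35.8 to 108 CPM (3.01-fold, 2.5 to 3.65) and the nucleic acid sensor gene Zbp1 from 42.1 to 93.2 CPM. Irf1 and Cxcl9 were under the fold, at 178 and 311 CPM and 332 and 605 CPM. Ccl22 and Ccl17, ligands of CCR4, were at 539.9 and 517 CPM and 932 and 710.4 CPM. Tnfsf9, the gene of the costimulatory ligand 4-1BBL, fell from 52.8 to 20.8 CPM.

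The named genes that rose most in dendritic cells were Gria3, a glutamate receptor gene, from 1.94 to 34.4 CPM, the oxysterol enzyme gene Cyp7b1 from 43.3 to 193 CPM (4.45-fold, 3.78 to 5.25), the lectin gene Cd209d from 4.36 to 32.1 CPM, Olfr920 from 2.42 to 22.8 CPM and Prdm1, which encodes the repressor Blimp-1, from 6.54 to 34.6 CPM. Those that fell most were Hsph1 from 721 to 152 CPM (4.73-fold, 4.35 to 5.16), the co-chaperone gene Bag3 from 165 to 35.3 CPM, Hspa1b, the kinase gene Map2k6 from 65.6 to 14.3 CPM and BC028528 from 52 to 11.8 CPM. Heat shock genes therefore took 3 of the 5 lowest places in this class.

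B cells of the anti-PD-L1 library held more RNA of interferon response and MHC class I genes and much less of heat shock genes, from 78 control cells and 237 anti-PD-L1 cells. Of 5194 genes 172 (3.31%) were higher past the fold and 94 (1.81%) lower. Erythroid markers summed to 8441.5 CPM in control B cells and 529 CPM in anti-PD-L1 B cells, with all 4 markers detected in both, and plasma cell markers to 1045.8 and 2245 CPM, and their part in the results was not tested. Interferon response genes rose in 9 of 16 cases (median 1.31), 5 of them above the limit for free RNA. Anti-PD-L1 B cells held 1469515 UMIs and control B cells 437955, so genes high with anti-PD-L1 reached the UMI floor more easily. Only 16 of 27 list genes reached it, and this count and median are a description. Irf1 rose from 75.3 to 327 CPM (4.34-fold, 3.05 to 6.38) and Gbp4 from 11.4 to 36.8 CPM. Igtp had 2 UMIs in control B cells and Ifi47 had 3 (12.4-fold, 3.32 to 104, and 5.17-fold, 1.67 to 25.9). Its medians in the pairs with 2DG and 2FF were -0.33 and -0.30.

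MHC class I genes rose in 5 of 12 cases in B cells, with the immunoproteasome gene Psmb9 from 41.1 to 109.6 CPM (2.67-fold, 1.63 to 4.61) and Tap1 from 61.6 to 130 CPM. H2-T23, a class I gene that is not among these 12, fell past the fold in B cells. Of 14 B cell activation genes 4 fell, among them Myc, a driver of growth, from 112 to 29.3 CPM (3.82-fold, 2.49 to 5.9), the activation marker gene Cd83 from 1427 to 628 CPM and Nr4a1, which antigen receptor signals induce, from 151 to 61.2 CPM. Named among the higher genes were also the DNA polymerase gene Pola1 from 11.4 to 67.4 CPM (5.9-fold, 2.45 to 18.6), the chemokine receptor gene Cxcr3 with 2 control UMIs (8.34-fold, 2.2 to 70.6) and the ubiquitin ligase gene Rnf43 with 1 (16.7-fold, 2.88 to 671).

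The heat shock gene Hspa1b was lower past the fold with anti-PD-L1 in every class but monocytes. Hspa1b and Hspa1a encode nearly identical inducible HSP70 chaperones, between which reads may be split. In B cells Hspa1b (GRCm38, chromosome 17, 34956436 to 34959238) fell from 1299 to 69.4 CPM (18.7-fold, 15.1 to 23.3). Hspa1a fell there from 827 to 59.9 CPM, and the co-chaperone genes Hsph1 and Dnajb1 from 822 to 118 CPM and from 438 to 85.1 CPM. Ern1, a sensor of unfolded proteins, was the remaining 1 of the 5 lowest named B cell genes and fell from 244 to 44.9 CPM. Of the classes with more cells, Hspa1b fell from 489 to 81.8 CPM (5.97-fold, 5.56 to 6.41) in T cells, from 409 to 96.2 CPM in macrophages, from 710.3 to 198 CPM in dendritic cells and from 352 to 140.5 CPM in neutrophils. In NK cells it fell from 365 to 95.4 CPM, and in CD8 T cells from 539.6 to 78.8 CPM. Monocytes were the exception, at 321 and 276 CPM (1.16-fold, 1.12 to 1.2).

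The dissociation and stress list of 20 genes, which joins heat shock and immediate early genes, had 7 genes that fell in B cells (median log2 ratio -0.64), 6 in dendritic cells (-0.29), 5 in CD8 T cells (-0.35), 4 in macrophages (-0.47), 4 in T cells (-0.32), 3 in neutrophils (-0.35) and 1 in monocytes (-0.09). In NK cells 5 fell and 3 rose, with a median of 0.17. In CD8 T cells 1 rose, and in the remaining classes none did. The immediate early genes Fos and Jun, which tissue handling induces, were under the fold in macrophages at 1815 and 1238 CPM and 1592 and 1414 CPM. Zfp36, which encodes an RNA-decay factor and is induced with them, fell in macrophages from 825 to 296 CPM (2.78-fold, 2.68 to 2.89), in monocytes from 897 to 440 CPM and in neutrophils from 1934 to 796 CPM. The T cell level of Hspa1b was 181 CPM with 2DG, 18.5 CPM with 2DG plus anti-PD-L1, 98.5 CPM with 2FF and 80.2 CPM with 2FF plus anti-PD-L1, so control was the highest of the 6. In the pairs with 2DG and 2FF the stress list had medians of 0.60 and 0.18 in macrophages.

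The 250 bases before the start of Hspa1b (RefSeq, GRCm38.p6, chr17:34959239-34959488, minus strand, 5′ to 3′) are shown because this gene was lower past the fold in 6 of 7 classes. Capitals mark a pair of heat shock half-sites, GAANNTTC, searched on both strands. It was found in 3 of 18 windows of the stress list (16.7%) and in 6.69% of all 32851 windows. It was also found in 2 of 8 MHC class II windows (25%) and 2 of 28 interferon response windows (7.14%), so it was not particular to the stress list.
Hspa1b: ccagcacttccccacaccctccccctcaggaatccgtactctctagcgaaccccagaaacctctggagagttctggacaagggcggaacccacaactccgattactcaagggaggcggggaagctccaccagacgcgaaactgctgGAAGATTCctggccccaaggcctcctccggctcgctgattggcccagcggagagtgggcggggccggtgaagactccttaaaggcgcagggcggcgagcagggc

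**Figure D5:**
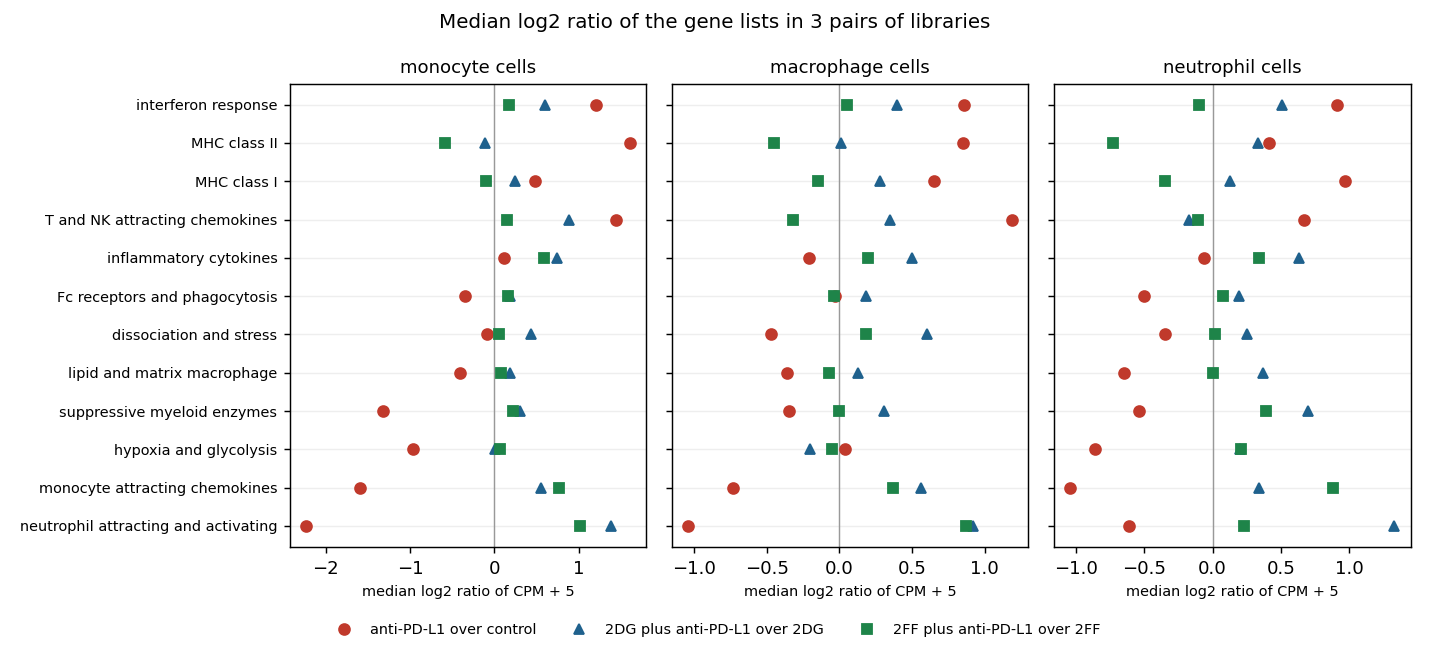
Median log2 ratio of CPM + 5 over the compared genes of 12 lists (y axis) in monocytes, macrophages and neutrophils (panels, each with its own x axis), for anti-PD-L1 over control and for the 2 pairs with 2DG and 2FF, 1 library each. In monocytes the interferon list lies at 1.20, 0.60 and 0.18 in these pairs, and the neutrophil attracting list at -2.23, 1.38 and 1.02.

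The level of each gene was also ranked over all 6 libraries. Control was the lowest for 65 of the 71 higher genes in T cells (27.2% of all compared genes), 158 of 161 in CD8 T cells (33.1%), 127 of 129 in NK cells (33.9%), 151 of 172 in B cells (28%), 459 of 507 in neutrophils (36.6%) and 113 of 123 in dendritic cells (24%). It was the highest for 142 of the 148 lower genes in T cells (34.1% of all compared genes), 151 of 156 in CD8 T cells (30.4%), 73 of 78 in NK cells (30.5%), 83 of 94 in B cells (24.5%), 270 of 303 in neutrophils (16.6%) and 118 of 134 in dendritic cells (23.2%). These genes were chosen by their distance from control, which by itself puts control toward an edge, so the counts are a description. Where control was at the edge, all other libraries lay on the same side of it by definition, those without the antibody included. The anti-PD-L1 library was the highest of the 6 for 19 of the 71 higher T cell genes (19.3% of all compared genes), 135 of the 491 higher monocyte genes (19%) and 214 of the 507 higher neutrophil genes (13.5%).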

How the data were processed

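The 6 libraries were 10x Genomics 3′ single-cell RNA libraries of 1 mouse each, and the deposited values are raw UMI counts per gene and cell barcode for 32285 genes, made by the authors with Cell Ranger against mm10. The matrix headers name version 7.0.0 and the submitters' processing notes 3.1.0. Barcodes under 250 genes (77 in control, 104 with anti-PD-L1) and those over 5% mitochondrial UMIs (566 and 952) were left out. Some barcodes are in both counts, and 9075 and 8801 cells passed. No doublet caller was run, and cells that held at least 5 of 9 markers of another class were left out as an alternative.

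A cell was placed in the class with the highest mean ln(1 + UMIs per 10000) over 9 marker genes if at least 3 of them had a UMI, and 618 control and 790 anti-PD-L1 cells had no class. Counts were summed per class and library. Genes with at least 50 UMIs in both libraries together were compared by the log2 ratio of CPM + 5, and the limit for possibly free RNA was 20% of the level in another class of the same library. The gate markers, mitochondrial, ribosomal protein, receptor chain, haemoglobin and unnamed gene models were left out of the named genes. The members, 19 gene lists (249 genes, 3 of them not matched) and comparisons were chosen with earlier results of these data known. The steps were tested on simulated data. Alternatives covered the cell filters, the gate, the denominator, the pseudocount, the UMI floor, the scaling and thinning. PCR copies were collapsed by UMI, and intervals cover counting error only. Gene positions came from the GENCODE annotation of GRCm38, matched by Ensembl identifier for 528 genes, and promoter windows from RefSeq (GRCm38.p6). Python 3.11.15, numpy 2.4.6, scipy 1.17.1, pandas 2.3.3 and matplotlib 3.10.9 were used. The values of 1 gene of the interferon list are not reported here.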

Additional observations from a re-analysis of the deposited data

Results flagged for a closer look

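The difference between anti-PD-L1 and control was set beside the difference made by adding anti-PD-L1 to 2DG or to 2FF, in pairs of libraries that share no sample with control and anti-PD-L1. With 1 library per group the differences between these pairs were not tested. Each value below had one sign for anti-PD-L1 against control and the opposite sign in both further pairs.

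The share of T cells differed by 30.1 percentage points between anti-PD-L1 and control, by -6.99 with 2DG and by -8.49 with 2FF. The share of non-classical monocytes among monocytes differed by 17.3 percentage points, and by -10.8 and -4.37 in the further pairs. In monocytes the median log2 ratio of MHC class II was 1.61, against -0.11 and -0.58. Over all compared monocyte genes the further pairs had medians of -0.07 and -0.04. The MHC class II value with 2DG thus lay close to that of all genes. The median of neutrophil attracting genes in monocytes was -2.23, against 1.38 and 1.02. That of monocyte attracting chemokines was -1.59, against 0.55 and 0.77, and that of suppressive enzymes -1.32, against 0.30 and 0.22. In macrophages the neutrophil attracting genes had a median of -1.04, against 0.92 and 0.87, and the stress genes -0.47, against 0.60 and 0.18. In neutrophils the suppressive enzymes had a median of -0.54, against 0.70 and 0.39, and the hypoxia genes -0.86, against 0.20 and 0.21.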

How the results depend on the processing

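Each result was recomputed under 1 changed setting at a time, and a difference in share or a list median is given below where it moved by more than its counting error, a count of genes where it changed by more than 1.5 times. Of the differences in share 66 values did not move that far and 21 did, of which 3 changed sign, of list medians 157 did not and 59 did, and of counts of genes 110 did not and 50 did. No list median changed sign except in CD8 T cells, where the interferon list was at -0.03 after centring and -0.09 without mixed cells, and the checkpoint list at 0.02 without mixed cells and 0.06 after thinning. The differences before these changes, in percentage points, were 30.1 for T cells, 2.04 for B cells, -38.3 for neutrophils, -1.23 for monocytes, 2.47 for macrophages, 1.32 for dendritic cells, 31.4 for CD8 T cells, -16.5 for CD4 T cells, -9.12 for Foxp3 T cells and 17.3 for non-classical monocytes. A floor of 500 genes per cell and a mitochondrial limit of 10% moved none of the shares, counts or medians that far where they were tried. The cause of a moved value was not tested, apart from what a setting does by construction.

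With 1 CPM added in place of 5, genes past the fold numbered 237 higher and 315 lower in T cells, 907 higher in neutrophils, 966 higher and 469 lower in monocytes, 340 higher and 270 lower in macrophages, 209 higher and 233 lower in dendritic cells and 250 lower in CD8 T cells. The list medians then were 1.31 (interferon), -2.62 (neutrophil attracting), -1.40 (suppressive) in monocytes, 1.04 (interferon), 0.95 (MHC class II) in macrophages and 1.11 (granule) in neutrophils. With 20 CPM added, genes past the fold numbered 18 higher and 50 lower in T cells, 47 lower in NK cells, 83 higher and 62 lower in B cells, 176 higher and 133 lower in neutrophils, 196 higher and 151 lower in monocytes, 50 higher and 55 lower in macrophages, 28 higher and 47 lower in dendritic cells and 20 higher and 53 lower in CD8 T cells. The list medians then were 1.0 (interferon), 1.5 (MHC class II), 1.27 (T and NK attracting), -1.74 (neutrophil attracting), -1.48 (monocyte attracting), -1.16 (suppressive) in monocytes, 0.72 (interferon) in macrophages and 0.61 (granule) in neutrophils. At a floor of 200 UMIs per gene, genes past the fold numbered 56 higher and 14 lower in NK cells, 32 higher and 34 lower in B cells, 53 higher and 73 lower in dendritic cells and 76 higher and 70 lower in CD8 T cells. The list medians then were 1.73 (MHC class II) in monocytes, 0.95 (MHC class II) in macrophages and -0.93 (suppressive), 1.13 (granule) in neutrophils. At a floor of 1 UMI, genes past the fold numbered 148 lower in NK cells and 190 lower in B cells. The list medians then were -1.09 (neutrophil attracting), -0.83 (suppressive) in monocytes, -0.80 (neutrophil attracting) in macrophages and -0.14 (suppressive), 0.62 (granule) in neutrophils. With cells thinned to 1000 UMIs, the differences in share, in percentage points, were 33.7 for T cells, 2.98 for B cells, -44.6 for neutrophils, 4.13 for macrophages, 21.3 for CD8 T cells, -11.2 for CD4 T cells, -1.78 for Foxp3 T cells and 3.37 for non-classical monocytes. Genes past the fold numbered 22 higher and 18 lower in NK cells, 24 higher and 35 lower in B cells, 307 higher in neutrophils, 37 higher and 54 lower in dendritic cells and 51 higher and 65 lower in CD8 T cells. The list medians then were 1.12 (MHC class II), 1.47 (T and NK attracting), -1.66 (neutrophil attracting) in macrophages, 1.62 (T and NK attracting), -1.44 (monocyte attracting), -1.78 (suppressive), -0.90 (hypoxia) in monocytes, -0.97 (suppressive), -0.67 (hypoxia), 0.90 (granule) in neutrophils and -1.26 (stress) in B cells. As a mean over cells, the list medians were 1.31 (interferon), -0.72 (suppressive), 0.94 (granule) in neutrophils, 1.52 (MHC class II), -1.46 (monocyte attracting), -1.22 (suppressive) in monocytes, 1.01 (MHC class II), -1.37 (neutrophil attracting), -0.53 (stress) in macrophages, 0.12 (effector) in CD8 T cells and -1.04 (stress) in B cells. Centred on the median of all genes, the list medians were 1.06 (interferon), 1.47 (MHC class II), 1.30 (T and NK attracting), -1.72 (monocyte attracting), -1.46 (suppressive), -1.10 (hypoxia) in monocytes and 0.66 (granule) in neutrophils. Without cells that held at least 5 markers of another class, the differences in share, in percentage points, were -40.7 for neutrophils and 0.225 for monocytes. The list medians then were 1.02 (interferon), 0.78 (MHC class II), 1.07 (T and NK attracting), -0.56 (stress) in macrophages and -1.70 (monocyte attracting), -1.41 (suppressive), -1.01 (hypoxia) in monocytes. Without genes in the range of possibly free RNA, genes past the fold numbered 47 higher and 83 lower in T cells, 100 higher in macrophages, 71 higher and 81 lower in dendritic cells and 68 lower in CD8 T cells. With all passing cells as denominator, the differences in share, in percentage points, were 27.3 for T cells and -35.8 for neutrophils. With at least 4 markers required, the differences in share, in percentage points, were 32.4 for T cells and -39.6 for neutrophils. With a margin of 0.2 over the next class, the differences in share, in percentage points, were 32.3 for T cells and -40.8 for neutrophils. Without neutrophils in the denominator, the differences in share, in percentage points, were 27.8 for T cells, 1.48 for B cells, -23.6 for monocytes, -8.23 for macrophages and -1.03 for dendritic cells.

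Leaving neutrophils out of the denominator and leaving out possibly free RNA were chosen after seeing the data, and the former turned the macrophage and dendritic differences from higher to lower. The third change of sign was the small monocyte difference without mixed cells. Of the recomputed log2 ratios of named genes 663 kept their direction and stayed past the fold, and 7 came under it in the same direction, Fam20a in T cells (0.94) and CD8 T cells (0.96), Ston1 (-0.96), Olfr920 (0.93) and Fasn (0.97) with 20 CPM added, Tsc22d1 in NK cells (0.75) at the 10% mitochondrial limit and Fam241a in CD8 T cells (-0.69) after thinning. Depth limits the 25 NK cells and 78 B cells of the control library most. No paired analysis was possible because each treatment has 1 library and the labels give no replicate numbers, and for the same reason no replicate could be left out.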

Other observations

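Across the 7 classes, 1119 genes were higher with anti-PD-L1 past the fold in at least 1 class and 783 lower. In at least 5 classes 16 were higher and 20 lower. Per class, 0.618% (T cells) to 5.0% (neutrophils) of compared genes were higher and 1.08% (macrophages) to 2.99% (neutrophils) lower. Compared genes numbered from 4948 in NK cells to 11911 in monocytes, so not every gene could be counted in every class. The overlaps are therefore a description. Spp1 was lower in all 7 classes, and Cxcl3, the lipid droplet gene Hilpda and Thbs1, which encodes the matrix protein thrombospondin, were lower in all 6 in which they were compared. Spp1 was in the range of possibly free RNA in T, NK, B and dendritic cells, and Cxcl3 in T cells, B cells, macrophages and dendritic cells. Thbs1 fell from 2296 to 548 CPM (4.19-fold, 4.1 to 4.28) in monocytes, and the other 4 libraries held 467 to 739.6 CPM. In macrophages it fell from 1024 to 293 CPM. Apol8 was higher in 5 of 6 classes, Supv3l1 in 5 of 5 and Tcof1, which encodes a nucleolar factor of ribosome production, in 4 of 7. Tcof1 rose from 125 to 529 CPM (4.22-fold, 4.01 to 4.44) in macrophages and from 190.5 to 636 CPM in dendritic cells, and macrophages of the other 4 libraries held 387 to 642 CPM.

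Several myeloid genes outside the main lists differed as well. In monocytes Cd40, the receptor for T cell help, rose from 12.4 to 62.3 CPM (5.01-fold, 4.43 to 5.67), and Cx3cr1, the chemokine receptor gene of non-classical monocytes, rose from 35.9 to 95.1 CPM, beside their larger share. Nt5e, the gene of CD73, fell from 282 to 63.5 CPM (4.44-fold, 4.17 to 4.73), and the integrin gene Itgam from 1065 to 501 CPM. Inflammatory cytokine genes were mixed. Il6 and Il1a fell in monocytes, from 119 to 27.4 CPM and from 274 to 92.7 CPM, while Il1b was at 828 and 925 CPM. In neutrophils Tnf rose from 84.8 to 185 CPM (2.18-fold, 1.9 to 2.51), and Il1b was at 4325 and 3759.7 CPM. In dendritic cells the interferon-induced membrane protein genes Ifitm1, Ifitm2 and Ifitm3, whose sequences are closely related, rose from 294 to 723 CPM, from 210.4 to 536 CPM and from 343 to 875 CPM. Of the Fc receptor genes, Fcgr4, an activating receptor for IgG, rose in macrophages from 205 to 428 CPM (2.09-fold, 2 to 2.18), with 545 to 732 CPM in the other 4 libraries.

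Proliferation genes had lower values with anti-PD-L1 in macrophages and dendritic cells, in 12 of 12 compared genes of the cell cycle list in each class, though only Pcna and Stmn1 of dendritic cells were past the fold. Pcna, a clamp of DNA replication, fell there from 128 to 59.8 CPM (2.14-fold, 1.84 to 2.5). Mki67, a marker gene of dividing cells, was at 88.7 and 48.1 CPM (1.85-fold, 1.68 to 2.03) in macrophages. In B cells Mki67 and Top2a had 2 UMIs each in control and were higher with anti-PD-L1 (14.6-fold, 3.94 to 122, and 12.1-fold, 3.24 to 101).

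In the study 2DG was used against branched N-glycans and 2FF against fucosylation. Of the glycan enzymes, 2 sialyltransferase genes were past the fold in monocytes. In the other classes the only one was St6gal1, in the range of possibly free RNA. Of 13 genes compared in monocytes St6gal1, a sialyltransferase gene, fell from 91.4 to 31.1 CPM (2.94-fold, 2.68 to 3.23) and St3gal4, a further one, rose from 130.5 to 291 CPM. Mgat5, the gene of the enzyme that branches N-glycans, was at 289 and 279 CPM in T cells and 193 and 223 CPM in monocytes. Fut8, the core fucosyltransferase gene, was at 138 and 151 CPM in T cells.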
